A study of Mus musculus with 12 samples.

Results

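CD8+ T cells that held transcripts of Ifng were examined among CD4/CD8-selected cells from PyMT breast tumors of mice. Ifng encodes IFN-γ. The cells were chosen by raw UMI counts, a UMI being the tag that marks 1 captured mRNA molecule. A cell qualified with at least 1 UMI of Cd8a and at least 2 of Ifng, and with 0 UMIs of Cd4, Havcr2, Mki67 and Tcf7, after cells with fewer than 200 detected genes or with 10% or more mitochondrial UMIs had been left out. Of 23101 barcodes, 19528 were kept, 8276 passed the gate without regard to Ifng, and 1232 of these were Ifng cells. They were compared with 3627 cells of the same gate that had 0 Ifng UMIs and were matched by total UMIs, called matched cells here. Since the rule used Ifng, Cd8a, Cd4, Havcr2, Mki67 and Tcf7, the levels of these 6 genes are given as descriptions of the gate and support nothing.

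IFN-γ is the defining effector cytokine of cytotoxic and type 1 helper T cells. It is secreted after the T cell receptor (TCR) is engaged, or in response to IL-12 with IL-18, and acts through the JAK kinases on antigen presentation and on chemokines in the cells around. In tumors, CD8+ T cells with chronic antigen exposure take on exhausted states, in which Havcr2 (TIM-3) marks terminally exhausted cells and Tcf7 (TCF1) marks progenitor cells that renew themselves. The gate therefore leaves out cells with a transcript of either gene, and cells with a transcript of the proliferation marker Mki67.

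The CD4/CD8-selected cells came from 3 PyMT-PAR2 WT and 3 PyMT-PAR2 G37I mice. All mice carried the MMTV-PyMT transgene, in which a mammary tumor virus promoter drives the polyoma middle T oncogene and breast cancer arises spontaneously, and none received a further treatment. PAR2 G37I mice carry a mutated receptor that is resistant to signaling by coagulation factor Xa. The cells were taken with beads from mid-size tumors, frozen and thawed, and run on the 10x Genomics platform, and the methods describe adult mice of similar age and the same sex.

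The deposited matrix pools the 6 libraries, and its barcodes carry no sample name. In file order the barcodes run through the alphabet 6 times, and each such stretch is named a barcode run. Since the runs could not be tied to libraries, genotypes were not compared, the matrix was treated as 1 sample, and no value has a replicate error or a p-value. Run values are shown as a description. Runs held 2344 to 5223 barcodes and 16222260 to 30182353 UMIs, and 51 barcodes occurred in more than 1 run, with 6 Ifng cells carrying such a barcode. Runs 4 and 5 stood apart, since 41.5% and 45.1% of their cells were over the mitochondrial limit, against at most 4.82% in the other runs. Intervals (CI) are exact at 95%. UMI sums have Poisson intervals and shares Clopper-Pearson intervals, neither of which covers more than counting error. Where a count was 0, the limit given is the value that 3 counts would have. Fewer transcribing cells and less RNA per cell cannot be told apart from a summed level, so shares of cells with a UMI are given beside it.

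The label of CD8 T cells held for the markers that the gate did not use. Among Ifng cells, Cd8b1 stood at 904 UMIs per 1000000 UMIs (CPM), Cd3e at 584 CPM, Cd3g at 1523 CPM and Trac at 685 CPM. Of the 5 NK cell markers, Ncr1 had 0 UMIs, which allows up to 0.485 CPM, Klrb1c stood at 0.647 CPM, Fcgr3 at 2.26 CPM and Klre1 at 35.4 CPM. The fifth, Eomes, which CD8 T cells also express, stood at 114 CPM and made up most of the 152 CPM of the list. The 4 markers of γδ T cells summed to 152 CPM in Ifng cells and 132 CPM in matched cells, with a UMI in 38.9% and 34.4% of cells. Trdc, the δ chain, stood at 8.25 and 11.9 CPM, and most of the sum was Tcrg-C4, at 91.0 and 71.0 CPM (fold 1.28, CI 1.16 to 1.42, higher in 6 of 6 runs). Transcripts of other cells were present as well. The 8 macrophage markers summed to 364 CPM in Ifng cells (23.2 to 1281 CPM over the runs) and to 737 CPM in matched cells (20.5 to 2508 CPM). The 7 dendritic cell markers summed to 87.5 and 181 CPM, the 5 tumor or epithelial cell markers to 139 and 270.1 CPM and the 4 fibroblast markers to 12.5 and 105 CPM. B cell markers reached 3.23 CPM and neutrophil markers 1.13 CPM in Ifng cells, with Cd79a and Csf3r at 0. The part of these cells in the differences that follow was not tested. Markers of macrophages, dendritic cells, B cells, neutrophils, tumor or epithelial cells and fibroblasts were also counted per cell, without Apoe, Cd74 and H2-Ab1. Of Ifng cells, 39.0% (CI 36.3 to 41.8%) had at least 2 UMIs over these markers of other cell types, against 35.9% (CI 34.3 to 37.5%) of matched cells.

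Ifng cells made up 14.9% of the gate (1232 of 8276 cells, CI 14.1 to 15.7%). By run, the share was 12.5%, 14.0%, 21.4%, 16.8%, 9.23% and 14.3% in runs 1 to 6. The interval of run 3 (CI 19.4 to 23.5%) lay above those of runs 1, 2, 5 and 6, and just overlapped that of run 4 (CI 14.4 to 19.5%). The interval of run 5 (CI 7.45 to 11.3%) lay below those of runs 2, 3, 4 and 6. Run 3 also had the highest level of macrophage markers and the shallowest Ifng cells, whose median depth was 3668 UMIs and that of the other runs 4151 to 5214 UMIs. Whether these bear on the share was not tested. Ifng cells and matched cells had like depths, with medians of 4356.5 and 4362 UMIs and 1596 and 1595 genes, and median mitochondrial shares of 3.50% and 3.90%.

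Ifng transcripts were spread unevenly over the cells that held them. Ifng cells had a median of 3 Ifng UMIs and a highest value of 70. Of the 1232 cells, 585 (47.5%) had exactly 2 and 197 (16.0%) had 6 or more. The 123 cells of the top decile held 31.9% of their 4768 Ifng UMIs. Cells just outside the rule, with 1 Ifng UMI, numbered 1374, and 5670 cells had none. The Ifng cells held 77.6% of the Ifng UMIs of the gate (CI 76.6 to 78.7%) and 30.9% of those of all kept cells (CI 30.2 to 31.6%).

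**Figure D1:**
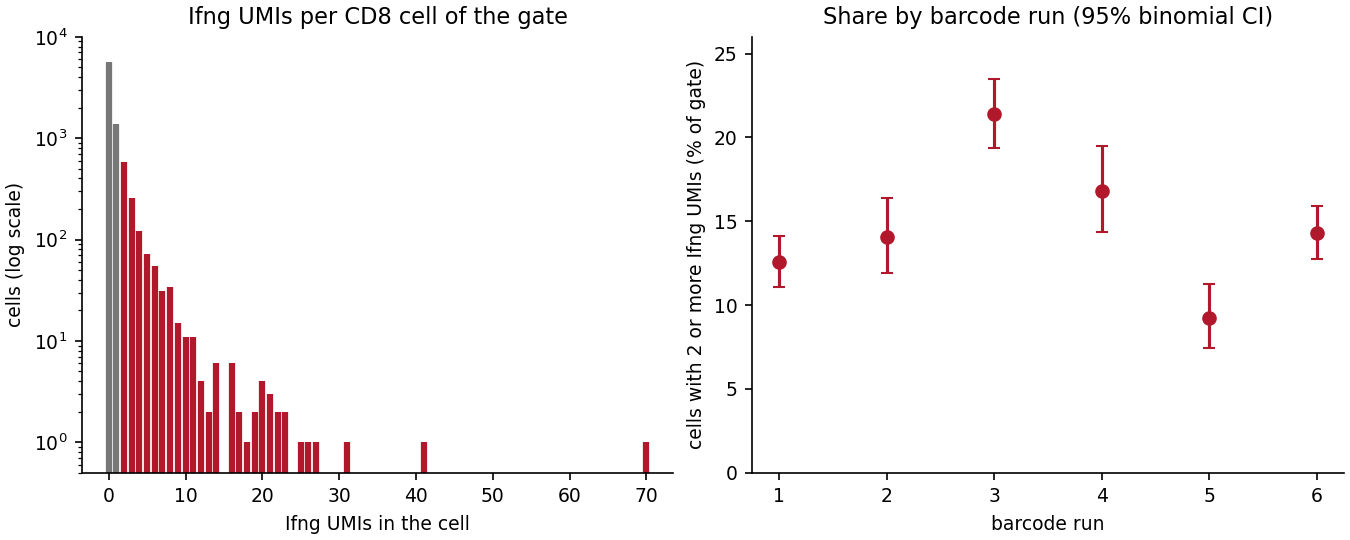
Left, number of cells of the gate (log scale) at each count of Ifng UMIs, with Ifng cells in red and cells with 0 or 1 UMI in gray. Right, share of the gate with 2 or more Ifng UMIs in each barcode run, with exact 95% binomial intervals. Counts fall from 5670 cells at 0 UMIs to 585 at 2, a tail reaches 70 UMIs, and the share runs from 9.23% in run 5 to 21.4% in run 3.

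Ifng transcripts were also found in T cells outside the gate. Without correction for depth, at least 2 Ifng UMIs were found in 26.1% of 693 CD8+ cells with a Havcr2 transcript, in 22.1% of 1614 with Mki67, in 16.4% of 4436 with Tcf7 and in 14.1% of 916 Cd4 cells. These groups differed in depth, from a median of 4295 UMIs in the gate to 9081.5 in Mki67 cells. After each cell had been thinned at random to 2000 UMIs, the share was 6.90% in the gate (CI 6.36 to 7.48%), 7.87% with Havcr2 (CI 5.97 to 10.1%), 4.75% with Mki67 (CI 3.76 to 5.91%), 5.15% with Tcf7 (CI 4.51 to 5.84%) and 7.78% in Cd4 cells (CI 6.10 to 9.74%). The thinned shares with Mki67 and with Tcf7 lay below the gate beyond their intervals, and those with Havcr2 and in Cd4 cells did not differ from it beyond them. The thinning left out 295 cells of the gate and 7 to 29 of each other group.

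Free RNA is a background in droplet data and was read in cells with at least 10 UMIs of macrophage markers and 0 UMIs of Cd3d, Cd3e, Cd3g, Trac and Cd8a. These cells were not free of T cell transcripts, since 16.0% of them held a UMI of Trbc2, Cd2 or Cd8b1. The requirement of 0 UMIs may also have left out cells with more free T cell RNA. The Ifng level read in the cells kept may therefore be too low as a background. None of 865 such cells had 2 Ifng UMIs, which allows a share of up to 0.347%, at a median depth of 15983 UMIs. Their 10 Ifng UMIs in all gave 0.633 CPM (CI 0.303 to 1.16), against 149.8 CPM in the gate. The 771 CPM of Ifng cells follows from the rule and gives no comparison with background.

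The Ifng gene lies at chr10:118441046-118445892 on the plus strand of GRCm38 (GENCODE M21). The 250 bases before its RefSeq start are shown with those of Ccl3 and Cxcl10, because both are chemokine genes past 2-fold in the comparison that follows. The rule for these sequences named 4 genes, Ifng, Ccl3, Ccl4 and Cxcl10, of which 3 matched an entry. Capitals mark matches on either strand to the NFAT core GGAAA, which reads as its reverse complement when it lies on the other strand. They also mark the AP-1 motif TGANTCA, with N for any base, and the TATA box TATAAA. The NF-kB motif was searched in 1 form, GGG, any 2 bases, TT, any 1 base and CC. Other forms of these motifs, and motifs of other factors, were not searched.
Ifng, chr10:118440796-118441045, plus strand, GRCm38.p6: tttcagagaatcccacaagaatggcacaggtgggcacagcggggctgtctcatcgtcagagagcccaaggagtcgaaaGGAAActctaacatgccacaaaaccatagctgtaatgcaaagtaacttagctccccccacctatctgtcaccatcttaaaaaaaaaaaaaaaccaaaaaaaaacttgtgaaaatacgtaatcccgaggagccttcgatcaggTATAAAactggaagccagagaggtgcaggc
Ccl3, chr11:83649379-83649628, minus strand, GRCm38.p6: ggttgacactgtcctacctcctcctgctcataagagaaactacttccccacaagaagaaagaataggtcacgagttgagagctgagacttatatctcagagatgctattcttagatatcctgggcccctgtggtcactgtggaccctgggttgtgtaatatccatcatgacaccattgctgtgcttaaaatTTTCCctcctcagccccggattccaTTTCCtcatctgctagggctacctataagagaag
Cxcl10, chr5:92348890-92349139, minus strand, GRCm38.p6: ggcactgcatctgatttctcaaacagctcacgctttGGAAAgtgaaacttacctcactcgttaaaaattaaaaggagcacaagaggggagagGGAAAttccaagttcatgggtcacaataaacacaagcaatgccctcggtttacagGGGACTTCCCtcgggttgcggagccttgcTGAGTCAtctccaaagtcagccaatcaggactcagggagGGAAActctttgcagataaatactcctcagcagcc
The Ifng promoter held 1 NFAT core, whose first letter lay 172 bases before the start, and a TATA box 30 bases before it. The Ccl3 promoter held 2 NFAT cores, 59 and 34 bases before the start, both on the other strand. The Cxcl10 promoter held 3 NFAT cores, 214, 158 and 35 bases before the start, with an NF-kB motif at 103 and an AP-1 motif at 74 bases. Of 32851 promoters of the same length, 55.6% held the NFAT core, 6.75% the AP-1 motif, 4.11% the NF-kB motif and 12.4% the TATA box. A match to these letters is a description of the sequence and not a measured binding site.

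The comparison of Ifng cells with matched cells asked which transcripts accompany Ifng within 1 state gate. Among 4849 genes detected in at least 10% of cells of either group, 11 were at least 2-fold higher in Ifng cells (0.227% of genes tested) and 11 were at least 2-fold lower (0.227%). Of the 11 higher genes, 7 (Hspa1b, Ccl3, Hspa1a, Ifit2, Cmpk2, Tagap and Mx1) reached 10% only in Ifng cells, and 3 of the lower genes (Pde2a, Lef1 and Cd9) only in matched cells, so that these genes entered the comparison through the group where they were high. The median fold of all genes tested was 1.01, with a 5th percentile of 0.859 and a 95th percentile of 1.25. The genes that were higher encode the chemokines Ccl3, Ccl4 and Cxcl10, the interferon-induced antiviral genes Ifit2, Cmpk2, Rsad2 and Mx1, the TCR-induced nuclear receptor Nr4a1 (Nur77), the T cell activation GTPase-activating protein Tagap, and the inducible HSP70 chaperones Hspa1a and Hspa1b. The genes that were lower fell into T cell genes, led by the chromatin organizer Satb1 and the TCF family factor Lef1, and genes of macrophages and epithelial cells. Of the 11 higher genes, 8 were higher in 6 of 6 runs, as were 7.51% of all genes tested. Of the 11 lower genes, 4 were lower in 6 of 6 runs, as were 3.84% of all genes. The calls were made on sums over these same runs, so this agreement is not independent of the call and is a description.

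**Figure D2:**
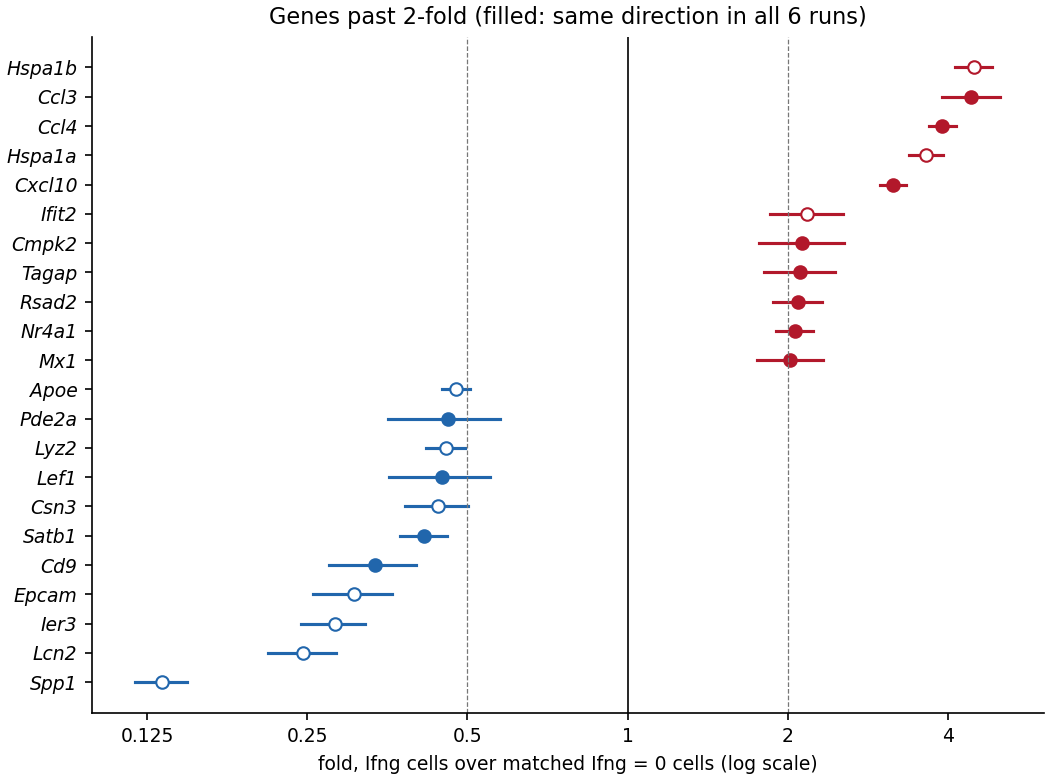
Fold of the 22 genes past 2-fold, Ifng cells over matched cells, on a log scale with exact 95% counting intervals (dashed lines at 0.5 and 2). Filled points had the same direction in all 6 barcode runs. Folds run from 0.134 for Spp1 to 4.47 for Hspa1b.

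Chemokines were the list with the highest median fold. Of 7 genes, 5 were tested, 3 were past 2-fold, and the median fold was 3.15, against 1.01 for all genes tested. The lists were chosen with earlier results of these data known, so the rank is a description. Over the alternatives given at the end, the list median ranged from 1.37 at detection in 25% of cells to 4.25 with 3 or more Ifng UMIs. Ccl4 (MIP-1β) at 313, 507, 327, 583, 583 and 413 CPM in Ifng cells of runs 1 to 6 did not overlap with matched cells at 97.7, 149, 90.5, 148, 36.3 and 115 CPM. Its pooled level was 422 CPM (CI 406 to 438) against 108 CPM (CI 103 to 113), a fold of 3.91 (CI 3.68 to 4.15). Transcripts of Ccl4 were found in 38.2% of Ifng cells and 20.02% of matched cells.

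Ccl3 (MIP-1α) ranged from 44.6 to 205 CPM over the runs, with a median of 80.8 CPM, in Ifng cells, and from 11.4 to 59.9 CPM, with a median of 18.7 CPM, in matched cells. It was higher in Ifng cells of every run, and the ranges overlapped only through the high matched level of run 2. Its fold was 4.42 (CI 3.90 to 5.02). Cxcl10, an interferon-induced ligand of CXCR3, ranged from 162 to 776 CPM (median 305 CPM) in Ifng cells and from 78.0 to 220.04 CPM (median 92.4 CPM) in matched cells, a fold of 3.15 (CI 2.98 to 3.34). Run 3 was highest in both groups for Cxcl10. The 10 highest cells held 42.6% of Ccl3, 38.6% of Cxcl10 and 26.7% of Ccl4 UMIs of the Ifng cells. With each cell counted up to 5 UMIs per gene, the folds were 2.91 for Ccl3, 2.57 for Ccl4 and 1.92 for Cxcl10.

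The other chemokines differed less. Xcl1 (lymphotactin, which attracts cross-presenting dendritic cells) stood at 345 CPM against 253 CPM, a fold of 1.37 (CI 1.30 to 1.44). It was higher in Ifng cells of 5 runs, while run 3 had 54.2 CPM against 131 CPM. Ccl5 (RANTES), which nearly every cell held, had a fold of 1.16 (CI 1.15 to 1.17).

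Among 13 other effector cytokines and TNF family ligands, 4 were detected widely enough to be tested and none was past 2-fold. Tnf was the nearest, at 116 CPM (CI 108 to 125) against 66.4 CPM (CI 62.7 to 70.3), a fold of 1.75 (CI 1.59 to 1.92). Over the runs it ranged from 70.6 to 141 CPM with a median of 112 CPM in Ifng cells, and from 38.8 to 95.1 CPM with a median of 59.9 CPM in matched cells. It was higher in Ifng cells in 6 of 6 runs, although the ranges overlapped. Fasl, the death ligand of cytotoxic cells, had a fold of 1.17, Tnfsf10 (TRAIL) one of 1.20, and Ltb (lymphotoxin β) one of 1.07. Il2 was found in 1.46% of Ifng cells and 1.24% of matched cells, and Csf2 (GM-CSF) in 0.325% and 0.165%. The summed level of Csf2 went the other way, at 0.647 against 7.29 CPM, from 4 and 131 UMIs. Il21 and Il3 had 0 UMIs in both groups.

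**Figure D3:**
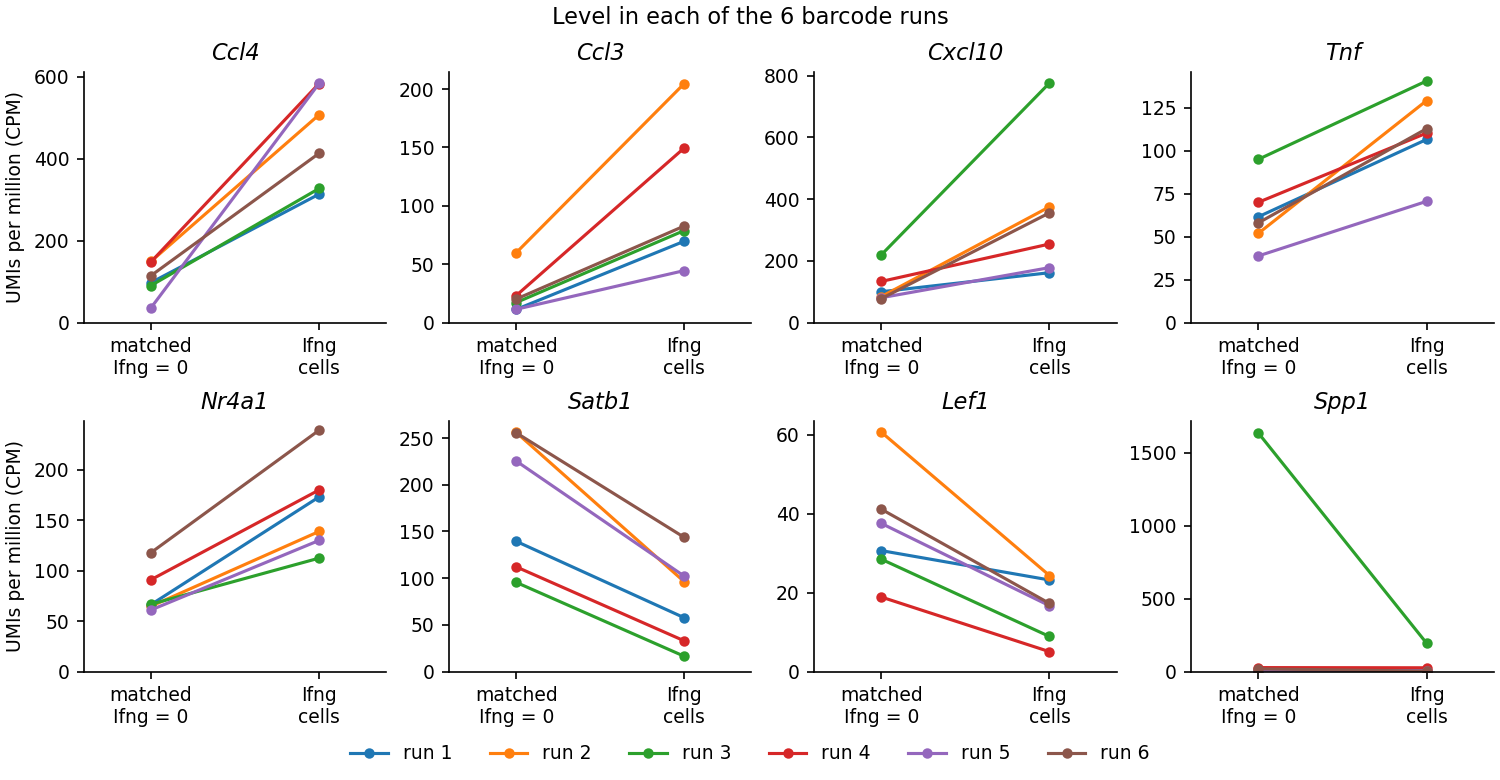
Summed level (CPM) of 8 genes in matched cells and Ifng cells of each of the 6 barcode runs, with 1 line per run. All 6 lines rise for Ccl4, Ccl3, Cxcl10, Tnf and Nr4a1 and fall for Satb1 and Lef1, while for Spp1 run 3 drops from 1635 to 195 CPM and the other runs lie at or below 27.9 CPM in both groups.

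Detection was also compared at a fixed depth. With every cell thinned to 2000 UMIs, 1215 Ifng cells and 3542 matched cells remained. Ccl4 was then found in 26.7% of Ifng cells (CI 24.3 to 29.3%) and 11.8% of matched cells (CI 10.7 to 12.9%), Tnf in 21.2% (CI 19.0 to 23.6%) and 11.9% (CI 10.8 to 13.0%), and Ccl3 in 7.08% (CI 5.70 to 8.67%) and 3.16% (CI 2.61 to 3.79%). Xcl1 was found in 19.5% and 18.7%, with overlapping intervals. The cells with macrophage markers hold Ccl3, Ccl4 and Tnf themselves, in 20.9%, 24.1% and 25.9% of cells, and give no background for these genes. For Xcl1, which is not a macrophage gene, their share was 0.404%.

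Cytokine transcripts were counted together in the thinned cells, over Ccl3, Ccl4, Ccl5, Tnf and Xcl1. Of these, Ccl5 was found in 97.4% of Ifng cells and 91.6% of matched cells, so a count of 2 mostly means Ccl5 with 1 other gene. Exactly 1 of the 5 was found in 46.0% of Ifng cells against 60.3% of matched cells, and exactly 2 in 36.0% against 28.5%. Exactly 3 were found in 13.6% of Ifng cells against 5.36% of matched cells, 4 in 2.80% against 0.847%, and 5 in 0.412% against 0.0565%. Ccl3 and Ccl4, which neighbor each other on chromosome 11, were found together in 4.20% of Ifng cells (CI 3.14 to 5.48%) and 1.16% of matched cells (CI 0.832 to 1.57%). Ccl4 and Tnf were found together in 6.75% (CI 5.40 to 8.31%) and 2.12% (CI 1.67 to 2.65%). Of Ifng cells with a Ccl3 UMI, 59.3% also held Ccl4, against 36.6% of such matched cells. Tnf and Xcl1 were found together in 3.79% and 2.15%, and Xcl1 was held by 17.8% and 18.1% of cells with Tnf. Single genes differed between the groups as well, with Ccl4 in 26.7% and 11.8% of all thinned cells. Joint shares therefore do not show a closer link between the genes in Ifng cells, which was not tested.

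Genes induced through the TCR formed the next group. Of 26 genes on that list, 19 were tested, 1 was past 2-fold, all 19 had folds above 1, and the median fold was 1.37, with 14 higher in 6 of 6 runs. Nr4a1 ranged from 112 to 239 CPM over the runs (median 156 CPM) in Ifng cells and from 61.1 to 118 CPM (median 66.6 CPM) in matched cells. Its fold was 2.06 (CI 1.90 to 2.23), and the ranges met only at the lowest run of the one and the highest of the other. Nr4a1 was 1.96-fold without run 1, 1.92-fold without heat shock cells, 1.88-fold with UMIs capped at 5 per cell and 1.62-fold with 1 or more Ifng UMIs, which left no tested gene of the list past 2-fold. Nfkbid, an atypical inhibitor of NF-kB, had a fold of 1.96 (CI 1.72 to 2.24). Cd69, the early activation antigen, stood at 351 against 211 CPM, a fold of 1.66 (CI 1.58 to 1.75), and its run values of 292 to 394 CPM did not overlap with 160 to 273 CPM in matched cells. Egr1, Jun and Fosb, immediate early factors, had folds of 1.57, 1.57 and 1.52, and Nr4a2 and Nr4a3, relatives of Nr4a1, of 1.49 and 1.37. Nfkbia and Nfkbiz, by comparison, had folds of 1.04 and 1.01. Below the detection limit for the test, Egr2 stood at 7.92 against 2.23 CPM and Irf4 at 16.3 against 7.62 CPM, both higher in 6 of 6 runs.

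Tagap, which acts on small GTPases after T cell activation, was chosen for the text by its fold. It ranged from 34.1 to 64.6 CPM in Ifng cells and from 17.0 to 31.8 CPM in matched cells over the runs, without overlap. Its fold was 2.11 (CI 1.81 to 2.45), and 1.92 without run 6.

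Interferon-induced genes were mostly higher in Ifng cells. Of 11 genes on the list of type I interferon targets, 9 were tested, 2 were past 2-fold, and the median fold was 1.74, with all 9 folds above 1 and 8 genes higher in 6 of 6 runs. Mid1, on the list but below the detection limit for the test, stood at 10.3 against 11.9 CPM. Rsad2 (viperin) stood at 97.2 against 46.5 CPM, a fold of 2.09 (CI 1.88 to 2.32), and Mx1, a GTPase that blocks viruses, at 53.5 against 26.5 CPM, a fold of 2.02 (CI 1.75 to 2.33). Ifit1 had a fold of 1.99, Ifit3 of 1.77 and Isg15, a ubiquitin-like modifier, of 1.74 (CI 1.65 to 1.83). Outside the list, Ifit2 was 2.17-fold higher (CI 1.85 to 2.54) and Cmpk2, a mitochondrial nucleotide kinase, 2.13-fold (CI 1.77 to 2.55). Ifit2 was lower in 1 of the 6 runs, run 5, with 16.7 against 19.7 CPM. Without run 3, Rsad2 was 1.93-fold, Mx1 1.74-fold and Ifit2 1.84-fold higher, so that no tested gene of the list was past 2-fold. Mx1 was 1.86-fold higher without run 2, and Cmpk2 1.85-fold without run 6.

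Genes of the IFN-γ pathway itself showed smaller differences. Of 14 genes, 11 were tested and none was past 2-fold, with a median fold of 1.23 and 7 genes higher in 6 of 6 runs. Gbp2, a guanylate-binding protein, had the highest fold, 1.90 (CI 1.71 to 2.11), followed by the feedback inhibitor Socs1 at 1.47 (CI 1.36 to 1.58). Irf1, a transcription factor, had a fold of 1.23. The receptor chain Ifngr1 stood at 877 and 890.2 CPM, a fold of 0.985 (CI 0.955 to 1.02), and Ifngr2 at 6.31 and 8.84 CPM.

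The Ifng cells were also divided by other transcripts they held. When the 1232 cells were divided by their UMIs of Ifit1, Ifit3, Rsad2 and Mx1 together, 244 had 3 or more and 774 had none. Cxcl10 stood at 1700.4 CPM in the first group and 41.6 CPM in the second. Gbp2, at 339 and 25.6 CPM, and Gzmb, at 944 and 396 CPM, also differed between them, while Ifng itself stood at 757 and 771 CPM with overlapping intervals. Ccl4 had a lower summed level in the first group, 275 CPM (CI 248 to 306) against 485 CPM (CI 463 to 508), but was found in like shares of cells, 39.3% and 38.6%. When the cells were divided by Ccl4 instead, 471 cells with a Ccl4 UMI had Ccl3 at 231 CPM and Nr4a1 at 266 CPM, and 761 cells without one had 20.2 and 104 CPM. Ifng was 932 CPM with Ccl4 and 672 CPM without. Cxcl10 was 501 CPM with Ccl4 and 321 CPM without, in 19.7% and 15.6% of cells. Isg15 stood at 399.7 CPM with Ccl4 and 358 CPM without, each in 49.7% of cells, and Gbp2 at 96.4 and 95.6 CPM. Median depths of the parts were 4272 to 4445.5 UMIs. These divisions were made on genes of the same cells, were not matched by barcode run and are descriptions.

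**Figure D4:**
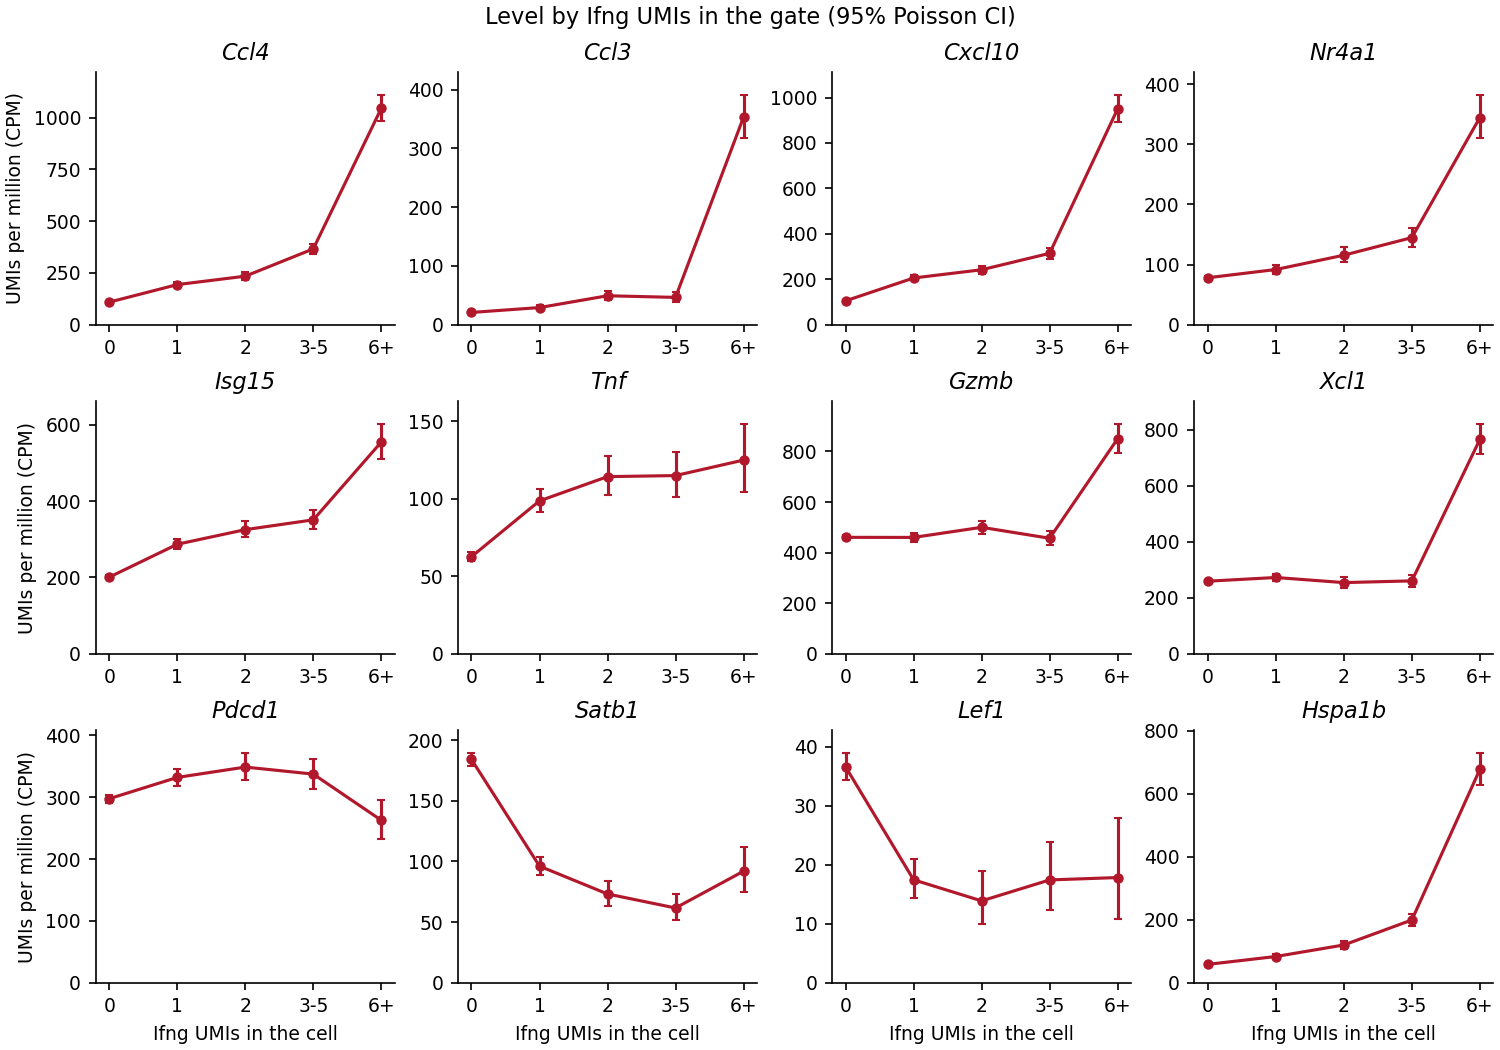
Summed level (CPM) of 12 genes in cells of the gate with 0, 1, 2, 3 to 5 and 6 or more Ifng UMIs (5670, 1374, 585, 450 and 197 cells), with exact 95% Poisson intervals. Ccl4 climbs from 109 to 1045 CPM, Xcl1 and Gzmb stay near their first level until the last class, and Satb1 drops at the first Ifng UMI.

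Some genes were graded with the amount of Ifng, and others stood out in the richest cells. Cells of the gate were put into classes of 0, 1, 2, 3 to 5 and 6 or more Ifng UMIs, with median depths of 4277, 4326, 4336, 4277.5 and 4525 UMIs. The classes took all cells of the gate and were not matched by barcode run. Runs differed in their share of Ifng cells, from 9.23% in run 5 to 21.4% in run 3, and the part of this in the gradient was not tested. Ccl4 stood at 109, 194, 234, 366 and 1045 CPM in these classes and was detected in 19.7%, 26.3%, 33.5%, 35.1% and 59.4% of cells. Cxcl10 stood at 105, 206, 242, 314 and 949.9 CPM, and Nr4a1 at 78.1, 91.8, 116, 145 and 345 CPM. The summed level of each of these 3 genes increased from class to class, and its intervals in the first and last class were far apart. Nr4a1 was found in 24.3%, 28.2%, 30.3%, 37.8% and 57.4% of cells. Cxcl10 was found in 9.81%, 13.4%, 12.1%, 19.1% and 27.9%, without an increase from 1 to 2 Ifng UMIs, and its sum lay largely in few cells.

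Ccl3 stood at 20.9, 29.2, 49.3, 46.5 and 353 CPM. Xcl1 stood at 259, 273, 254, 261 and 766 CPM, and Gzmb at 460.5, 460.1, 500.1, 457 and 850.4 CPM. These 3 genes had their high level in cells with 6 or more Ifng UMIs, which held Xcl1 in 41.1% of cells against 25.3% to 28.4% in the other classes. Tnf behaved differently, with 62.6, 98.6, 114, 115 and 125 CPM and overlapping intervals in the last 3 classes. The classes of 1 and 2 UMIs are the cells just outside and just inside the rule, and their levels of Xcl1 and of Tnf had overlapping intervals.

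With 3 or more Ifng UMIs required in place of 2, which left 647 cells, 22 genes were past 2-fold, among them all 11 above. The others included Ifit1 (2.60-fold), Gbp2 (2.48-fold), Usp18 (2.39-fold), Nfkbid (2.35-fold) and Ifit3 (2.16-fold). By run, cells with 6 or more Ifng UMIs made up 1.29% of the gate in run 5 to 2.98% in run 3, with overlapping intervals.

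Cytotoxic granule genes differed little between the groups. Of 16 genes, 10 were tested, none was past 2-fold and the median fold was 1.02. Gzmb, a granzyme that cleaves caspases, stood at 545 against 487 CPM, a fold of 1.12 (CI 1.08 to 1.16). Gzmk stood at 267 against 232 CPM, a fold of 1.15, and perforin, Prf1, at 52.4 against 52.9 CPM, a fold of 0.992 (CI 0.870 to 1.12). Gzma had a fold of 0.867, higher in 3 runs and lower in 3. Thinned to the same depth, Gzmb was found in 34.8% of Ifng cells (CI 32.1 to 37.6%) and 32.0% of matched cells (CI 30.5 to 33.6%).

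**Figure D5:**
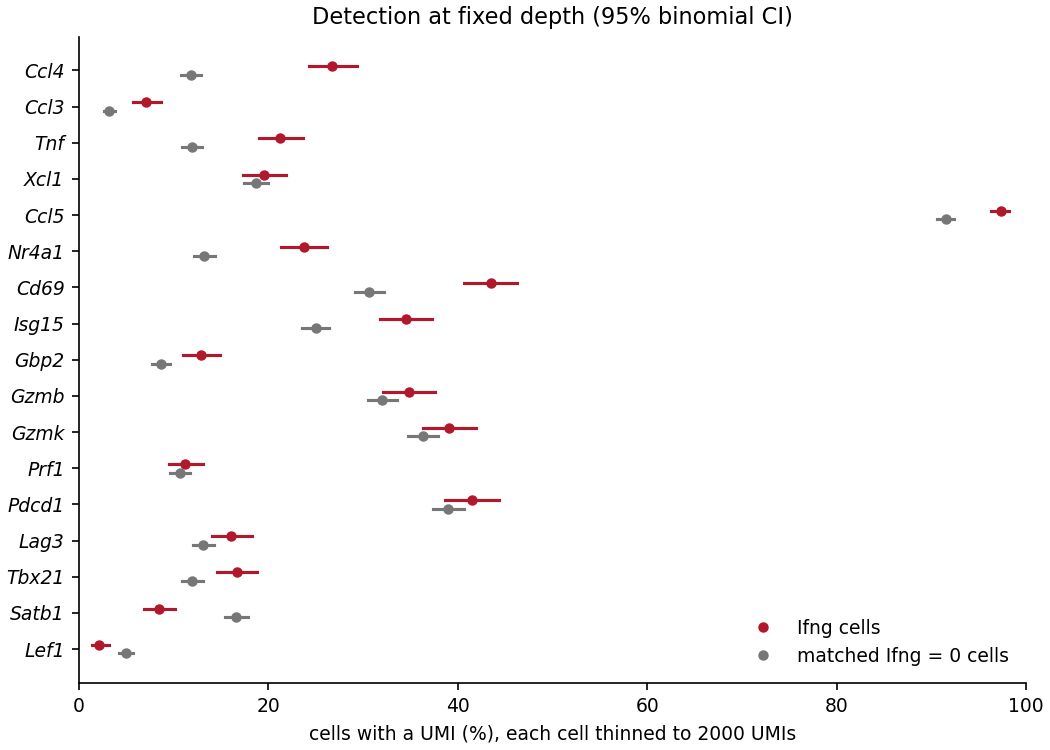
Share of cells with a UMI after each cell was thinned to 2000 UMIs, for 17 genes in 1215 Ifng cells (red) and 3542 matched cells (gray), with exact 95% binomial intervals. Ccl4 lies at 26.7% against 11.8% and Satb1 at 8.40% against 16.6%, while the intervals overlap for Xcl1, Gzmb, Gzmk, Prf1, Pdcd1 and Lag3.

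Receptors that restrain or support T cells were not past 2-fold either. Of 9 inhibitory receptors in the matrix, 6 were tested and none was past 2-fold, with a median fold of 1.09. Pdcd1 (PD-1) stood at 329.9 against 300.4 CPM, a fold of 1.10 (CI 1.04 to 1.16), and was highest in the class of 2 Ifng UMIs, with 349 CPM, and lowest in the class of 6 or more, with 263 CPM. Lag3 had a fold of 1.38 (CI 1.25 to 1.53) and Ctla4 of 1.35 (CI 1.25 to 1.46), each higher in 6 of 6 runs. Of 8 costimulatory receptors, 7 were tested and none was past 2-fold, with a median fold of 1.09. Cd28 stood at 446 against 314 CPM, a fold of 1.42 (CI 1.36 to 1.49), and Tnfrsf9 (4-1BB) at 95.7 against 99.1 CPM, a fold of 0.967. Killer cell receptors had a median fold of 1.09 over 5 genes tested of 9, with none of those tested past 2-fold. Too rare to be tested, Fcer1g stood at 34.0 against 79.8 CPM (fold 0.427, CI 0.367 to 0.492), lower in 6 of 6 runs. Tyrobp, Klra7 and Klrg1, also too rare, had folds of 0.635, 0.662 and 1.21. At fixed depth, Fcer1g and Tyrobp were found in 92.3% and 92.2% of the cells with macrophage markers.

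Transcripts of receptors and STAT factors for IL-12, IL-18 and the IL-2 family were near the level of matched cells among the genes tested. Their mRNA levels do not measure signaling. Of 12 genes of the IL-12, IL-18 and IL-2 receptor families, 7 were tested and none was past 2-fold, with a median fold of 1.14. Il18r1 had a fold of 1.16 (CI 0.991 to 1.35), Stat4, which transmits IL-12, of 1.21 (CI 1.14 to 1.29), and Il2rb of 1.02. Il12rb2, a chain of the IL-12 receptor, was too rare to be tested, at 8.89 against 15.8 CPM (fold 0.571, CI 0.414 to 0.754), and was lower in 6 of 6 runs. Proteins that bind cytokine mRNA and set its stability had a median fold of 1.21 over 6 genes tested of 7, none past 2-fold. Among them, Zfp36 (tristetraprolin), which destabilizes mRNA through AU-rich elements, stood at 148 against 108 CPM, and Elavl1 (HuR), which stabilizes such mRNA, at 87.3 against 90.2 CPM.

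State transcription factors held the T cell genes that were lower. Of 17 genes, 13 were tested and 2 were past 2-fold, both lower, while the median fold was 1.14. Satb1 ranged from 16.5 to 144 CPM over the runs (median 77.0 CPM) in Ifng cells and from 95.5 to 256 CPM (median 182 CPM) in matched cells. It was lower in Ifng cells of every run, although runs differed so much that the ranges overlapped. Its fold was 0.415 (CI 0.374 to 0.458), and it was found in 16.5% against 25.1% of cells, or 8.40% against 16.6% at fixed depth. By Ifng class it stood at 184, 96.2, 73.2, 61.7 and 92.0 CPM, so that most of the difference lay between cells with 0 and 1 Ifng UMIs.

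Lef1, a partner of β-catenin that is high in naive and progenitor T cells, ranged from 5.07 to 24.4 CPM (median 17.0 CPM) in Ifng cells and from 18.9 to 60.7 CPM (median 34.1 CPM) in matched cells. Its fold was 0.449 (CI 0.356 to 0.551), lower in 6 of 6 runs. Pde2a, a cyclic nucleotide phosphodiesterase, stood at 13.1 against 28.8 CPM, a fold of 0.459 (CI 0.355 to 0.575), also lower in 6 of 6 runs, and 0.509 without run 3. Tbx21 (T-bet), which drives Ifng transcription, stood at 92.0 against 60.8 CPM, a fold of 1.51 (CI 1.37 to 1.68), and Id2, a factor of effector cells, had a fold of 1.49 (CI 1.44 to 1.54), both higher in 6 of 6 runs. Eomes, the relative of Tbx21, had a fold of 1.03 (CI 0.940 to 1.12), and Tox one of 1.14.

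Naive and memory genes had a median fold of 0.986 over 5 tested of 8, with none past 2-fold. Ccr7, which guides naive cells to lymph nodes, was below the detection limit for the test, at 32.3 against 51.1 CPM, and was lower in 5 of 6 runs. Residency genes had a median fold of 1.11 over 6 tested of 7, and Itgae (CD103) one of 0.954. Genes of glycolysis had a median fold of 1.02 over 9 tested of 11 and nucleolar and translation genes one of 0.925 over 8, with none past 2-fold in either list.

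Heat shock genes encode chaperones that cells make under stress. Of 8 genes, all were tested, 2 were past 2-fold, and the median fold was 1.46. Hspa1b and Hspa1a, whose near-identical sequences make the division of their transcripts uncertain, were 4.47-fold (CI 4.12 to 4.85) and 3.64-fold (CI 3.38 to 3.92) higher. Over the runs Hspa1b ranged from 16.5 to 513 CPM (median 277 CPM) in Ifng cells and from 9.50 to 103 CPM (median 38.9 CPM) in matched cells, and run 3 had the lower level in Ifng cells. The pair was detected in few cells, 14.1% of Ifng cells for Hspa1b and 11.8% for Hspa1a. Hspa1b stood at 442 CPM in Ifng cells with a Ccl4 UMI and 122 CPM in those without. With cells of 5 or more Hspa1a and Hspa1b UMIs left out of both groups, Ccl4 was 3.27-fold and Cxcl10 3.28-fold higher, Ccl3 stood at 3.64-fold but below the detection limit, and 7 genes in all were past 2-fold higher. The part of heat shock in the other differences was not tested.

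The other 8 genes that were lower were Spp1 (0.134-fold), Lcn2 (0.246-fold), Ier3 (0.281-fold), Epcam (0.307-fold), Cd9 (0.335-fold), Csn3 (0.440-fold), Lyz2 (0.456-fold) and Apoe (0.476-fold). They are genes of macrophages (Lyz2, Apoe, Spp1), of mammary or tumor epithelium (Epcam, Lcn2, the casein Csn3) or of wider expression (the tetraspanin Cd9, the early response gene Ier3). Their UMIs lay in few matched cells. The 10 highest matched cells held 87.6% of Spp1, 80.0% of Ier3, 79.0% of Lcn2, 77.9% of Epcam and 56.8% to 59.0% of Csn3, Cd9, Lyz2 and Apoe UMIs. Detection was alike in the groups, with Spp1 in 16.6% and 17.3%, Lyz2 in 24.6% and 23.2% and Epcam in 10.7% and 8.30% of cells. Run 3 carried the difference for Spp1, with 195 against 1635 CPM, while the other runs had at most 26.6 and 27.9 CPM. Without run 3, 3 genes were lower in place of 11, and with the highest 5% of UMIs left out, 2 were. Only Cd9 of these 8 genes was lower in 6 of 6 runs.

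Transcripts of TCR β chain variable genes were too few to describe clones. Ifng cells held 106 Trbv UMIs over 15 genes and matched cells 233 over 19. Trbv29 made up 24.5% of these UMIs in Ifng cells (CI 16.7 to 33.8%) and 16.7% in matched cells (CI 12.2 to 22.2%), with overlapping intervals.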

How the data were processed

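Single cells were bead-selected for CD4/CD8 from PyMT tumors of mice with PAR2 WT or with PAR2 G37I, 3 libraries each. What the authors deposited for these cells is a single sparse matrix of raw UMI counts that pools the 6 libraries. Cell Ranger 3.0.2 and mm10 are named in the submitters' processing notes, without a role, and any filter on cells before deposit is not given in the sources used here. Of the 31053 gene symbols, 98.2% matched GENCODE M21 (GRCm38). The CD11c-selected cells were not used here.

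Barcodes were not linked to libraries, so the matrix was 1 sample and no test was run. For each Ifng cell, from the deepest, the 3 unused Ifng = 0 cells of the same barcode run nearest in total UMIs, without Ifng, were taken, and in run 3 all 942 such cells were used. The level is UMIs summed over cells per 1000000 UMIs (CPM). The fold is the ratio of levels with 1 UMI added to each sum, and its interval is the exact binomial interval given both sums. Genes without those of the gate were tested when detected in at least 10% of cells of either group, and called at 2-fold higher or 0.5-fold lower. Thinning drew 2000 UMIs per cell without replacement (seed 1). No doublet caller was run, and markers of other cell types were counted instead. The comparison recovered known folds in simulated counts. These were drawn from the pooled profile of Ifng = 0 cells with set folds. Cells of a group varied only by depth and sampling, so the simulation cannot show how calls fare where few cells hold a sum.

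The members and gene lists were chosen with earlier results of these data known. Named genes are those past 2-fold and those central to a list. Sequences are RefSeq promoters of GRCm38.p6. Alternatives varied matching, summing, thinning, detection, thresholds, gate and barcode runs. Leaving out runs 4 and 5, leaving out heat shock cells and capping UMIs at 5 per cell were chosen after seeing the data. Python 3.11.15, numpy 2.4.6, scipy 1.17.1 and matplotlib 3.10.9 were used.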

Additional observations from a re-analysis of the deposited data

How the results depend on the processing

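With 1 pooled sample there is no replicate error, and every interval covers counting error only. The folds of 201 genes were recomputed under 23 alternatives. Of 4623 values, 3877 stayed within the counting interval of the main fold, 712 moved out of it and 34 reversed. Reversal, a fold on the other side of 1, was counted only for genes past 2-fold in the main comparison. Ccl4 and Satb1 were past 2-fold and detected widely enough under all 23. With both conditions, the number was 21 for Cxcl10, 20 for Hspa1b, 19 for Ccl3, Rsad2 and Nr4a1, 18 for Hspa1a and Tagap, 17 for Ifit2 and Pde2a, 16 for Lef1, 15 for Cmpk2 and 13 for Mx1, and 7 to 11 for the other 8 lower genes. After thinning and at detection in 25% of cells, no heat shock gene met both. The cause of the changes below was not tested.

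The share of Ifng cells, 14.9%, was 31.5% with 1 or more Ifng UMIs, 7.82% with 3 or more, 16.6% at a mitochondrial limit of 5%, 13.2% without cells that held markers of other cell types and 16.1% without the condition on Havcr2, Mki67 and Tcf7. With each barcode run left out in turn it ranged from 13.4% (without run 3) to 15.6%. Of genes that were higher, 11 became 3 with 1 or more Ifng UMIs, 22 with 3 or more, 5 after thinning, 2 at detection in 25% of cells, 7 without heat shock cells and 7 with UMIs per cell capped at 5. Leave-one-out counts ranged from 8 to 12. Of genes that were lower, 11 became 3 with 1 matched cell per Ifng cell, 4 with matching over all barcode runs, 3 by the mean over cells, 1 after thinning, 23 at detection in 5% of cells, 2 at 25%, 3 with 3 or more Ifng UMIs, 1 at a mitochondrial limit of 5%, 3 with Cd3e required, 1 without cells with markers of other types, 2 without the highest 5% of UMIs, 4 without heat shock cells and 3 with capping. Leave-one-out counts ranged from 3 (without run 3) to 13.

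The reversed values belonged to 6 of the genes that were lower. Epcam was 1.23-fold with 1 matched cell, 1.31 with Cd3e required, 1.21 with capping, 1.20 without other-type cells, 1.33 without heat shock cells, 1.29 without the highest 5% of UMIs, 1.05 with matching over all runs, 1.00 by the mean over cells, 1.29 at the 5% mitochondrial limit and 1.07 after thinning. Ier3, in the same order and without a reversal after thinning, was 1.08, 1.33, 1.23, 1.55, 1.08, 1.45, 1.09, 1.04 and 1.23, was 1.22 with 3 or more Ifng UMIs, and with a run left out ranged from 0.219 to 1.23 (without run 3). Lcn2 was 1.18 with 1 matched cell, 1.14 with Cd3e, 1.07 with capping, 1.13 without heat shock cells, 1.11 without the highest 5% and 1.06 at the 5% mitochondrial limit. Apoe was 1.14 with Cd3e, 1.05 with capping and 1.12 without the highest 5%, Lyz2 1.08 with Cd3e and 1.05 with capping, and Spp1 1.05 with Cd3e and 1.05 without the highest 5%.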
